A study of Homo sapiens with 4 samples.

Results

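The 8 genes described here encode transcription factors and nuclear receptors that specify hepatocytes. They are HNF4A, FOXA1, FOXA2, FOXA3, CEBPA, NR1H4, NR5A2 and PROX1, and they were taken by matching the Entrez identifiers of the deposited gene tables to these symbols. The tables together list 17963 genes. Of the 8, 6 had a row in the vector and JFK tables and 5 in the siRNA tables. The study sequenced RNA from cells labelled HepG2, a line established from a human liver cancer, and the groups held 1 library each. In a plasmid experiment the cells received vector or a FLAG-tagged JFK plasmid (JFK is an older name of FBXO42, an F-box protein that brings substrates to a ubiquitin ligase). In an siRNA experiment they received control siRNA or ING5 siRNA, where ING5 is a reader subunit of histone acetyltransferase complexes. The labels give neither a time after transfection nor the promoter of the plasmid, and they name no other allele or agent.

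Hepatocyte identity is held by a small set of factors that bind one another's genes. FOXA proteins are forkhead factors that open closed chromatin in foregut endoderm, HNF4A is a nuclear receptor that drives most liver secretory and metabolic genes, and C/EBPα (the product of CEBPA) is a leucine zipper factor that couples differentiation to growth arrest. NR1H4 is the bile acid receptor FXR, NR5A2 is the receptor LRH-1, which acts on bile acid and steroid genes, and PROX1 is a homeobox factor of early liver progenitors and lymphatic endothelium.

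Where 4 values of a gene follow one another, their order is vector, the library labelled JFK, control, ING5 siRNA. The assigned reads were 7179585, 7237325, 9196979 and 9030075. A count of 0 allows up to 3 reads, which is 0.418, 0.415, 0.326 and 0.332 CPM (the counts-per-million scale of a library's assigned reads). Since each condition was read in 1 library, differences could not be checked on replicates and no test was run. The intervals given are exact 95% intervals that cover counting error only. They narrow as reads rise, and the genes compared below with all measured genes were not matched for read number. FBXO42 had 115 counts in the JFK library and 116 in vector, so the label was not matched by a higher transcript count, and it is called the library labelled JFK from here on. ING5 had 81 counts with ING5 siRNA and 144 with control siRNA, a log2 fold of -0.81 (interval -1.23 to -0.41).

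The label HepG2 was checked against 15 hepatocyte markers, and these went against it. None of the 15 reached 20 counts in any library, and 9, 7, 9 and 11 of them were at 0. Their summed level was 2.33 to 4.06 CPM. ALB (albumin), TTR (transthyretin), TF (transferrin), APOA2 and APOH had no row in any table. FGB, for the fibrinogen beta chain, was the highest marker with 15.4 expected counts in the library labelled JFK. The factors below were therefore read in cells in which these 15 markers were at or near 0. This does not hold for every liver gene. Of 28 secreted and transport genes described below, 6 had at least 20 counts in each library. Among them C3 had 3145 to 5000 counts and CP 1206 to 1412. The urea cycle gene CPS1 had 22227.1 to 46771. In bulk RNA, fewer cells of a type and less RNA per cell cannot be told apart.

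Promoter sequence is shown for HNF4A, NR5A2 and FOXA1, because these genes carry the differences described below and because FOXA factors, which bind forkhead motifs, were themselves read in these libraries. HNF4A has separate promoters, of which the downstream one is used in adult hepatocytes and the upstream one mainly in pancreas. Each window holds the 250 bases before a RefSeq start on GRCh38.p14, written 5′ to 3′ on the gene's strand. Capitals mark matches, on either strand, to TGTTTNC, a forkhead motif. The windows are chr20:44355449-44355698 (+) for the upstream HNF4A start, chr20:44400989-44401238 (+) for the downstream one, chr1:200042341-200042590 (+) for the downstream NR5A2 start and chr14:37595250-37595499 (-) for FOXA1.
HNF4A upstream start: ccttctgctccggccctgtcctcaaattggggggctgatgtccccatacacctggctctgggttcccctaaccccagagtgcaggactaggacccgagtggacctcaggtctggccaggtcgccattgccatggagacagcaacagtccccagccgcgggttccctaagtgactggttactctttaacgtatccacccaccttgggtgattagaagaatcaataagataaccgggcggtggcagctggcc
HNF4A downstream start: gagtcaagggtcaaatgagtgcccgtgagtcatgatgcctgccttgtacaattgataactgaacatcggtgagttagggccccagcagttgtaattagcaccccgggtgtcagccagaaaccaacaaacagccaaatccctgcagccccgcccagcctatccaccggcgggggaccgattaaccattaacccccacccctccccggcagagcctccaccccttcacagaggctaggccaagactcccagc
NR5A2 downstream start: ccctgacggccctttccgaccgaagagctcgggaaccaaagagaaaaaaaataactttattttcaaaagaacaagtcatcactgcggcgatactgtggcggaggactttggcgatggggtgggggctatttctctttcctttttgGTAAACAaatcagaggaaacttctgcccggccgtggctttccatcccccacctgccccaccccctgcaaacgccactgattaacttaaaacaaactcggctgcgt
FOXA1 start: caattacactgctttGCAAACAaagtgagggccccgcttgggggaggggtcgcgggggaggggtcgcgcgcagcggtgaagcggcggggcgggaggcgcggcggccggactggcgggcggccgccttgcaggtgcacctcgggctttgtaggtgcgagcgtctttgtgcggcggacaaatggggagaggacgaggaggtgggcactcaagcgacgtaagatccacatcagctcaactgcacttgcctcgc

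NR5A2 held a forkhead match 105 to 99 bases before its downstream start, and FOXA1 held one 235 to 229 bases before its start, both on the reverse strand. The window of the upstream NR5A2 start, which is not printed, held no match. The HNF4A windows, whose starts lie 45540 bases apart, held none of the motifs searched. Of 35116 RefSeq windows of the same length 15.5% held TGTTTNC, so the motif is common. CAAAGTCCA (HNF4), CAAGGTCA (NR5A2) and TTGCNNAA (C/EBP) were also searched on both strands. They had no match in the 8 windows of the 6 genes with a start in the table, against 0.325%, 1.14% and 9.05% of all windows. CEBPA, FOXA3 and NR1H4 had no match of any kind. Gene counts do not say which start was used.

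FOXA1 was the most abundant of the 8 genes in every library. It had 358, 365, 492 and 370 counts, lowest per total reads with ING5 siRNA, where the Poisson interval (36.9 to 45.4 CPM) did not overlap that of control siRNA (48.9 to 58.4 CPM). Its deposited level per length was 14.59 and 14.68 FPKM in the plasmid tables and 15.75 and 11.96 RPKM in the siRNA tables (FPKM and RPKM scale reads to gene length and library size). That level exceeded 68.9%, 69.7%, 72.8% and 67.7% of the genes listed in the 4 libraries. FOXA1 accounted for 71.9% of all reads of the 8 genes in vector (exact Clopper-Pearson interval 67.7% to 75.8%), 68.6% in the library labelled JFK, 73.3% with control siRNA and 61.6% with ING5 siRNA (57.5% to 65.5%).

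The other forkhead genes of this family were at the detection floor. FOXA2, needed for foregut and liver formation, had no row in any table, which is read here as no reads. Whether the annotation behind the tables held the gene was not tested, and the same holds for PROX1. FOXA3, a family member that persists in adult liver, had 2, 1, 2 and 5 counts. The 5 counts with ING5 siRNA against 2 gave an interval of 0.414-fold to 26.5-fold, so no difference was detectable at this depth. FOXA1 was thus the 1 FOXA gene with more than 5 reads in these 4 libraries.

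HNF4A was present at a low level. It had 51, 73, 75 and 91 counts, or 7.10, 10.1, 8.15 and 10.1 CPM. Both treated libraries stood above their own control, and the Poisson interval of each level overlapped that of its control. Per length the level was 2.48 and 3.47 FPKM against 1.69 and 2.07 RPKM, but these scales do not share a gene length. The plasmid tables list HNF4A at 2881.53 bases and the siRNA tables at 4828 bases, so CPM is the scale on which the 4 libraries can be set side by side.

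CEBPA had 53, 58, 31 and 30 counts. Its level was 7.38 and 8.01 CPM in the plasmid libraries and 3.37 and 3.32 CPM in the siRNA libraries. The libraries of each experiment lay close together and the experiments lay apart: the lowest bound in the plasmid libraries was 5.53 CPM and the highest bound in the siRNA libraries 4.78 CPM. NR5A2 showed the opposite order, with 33 and 35 counts in the plasmid libraries and 71 and 105 in the siRNA libraries, or 4.60, 4.84, 7.72 and 11.6 CPM. The tables of the 2 experiments were made separately, one with expected counts and the other with whole counts, so a difference between experiments and a difference between tables cannot be told apart.

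NR1H4, the bile acid receptor gene, had 1 count in vector, none in its treated partner, and no row in the siRNA tables. PROX1 had no row in any table. With FOXA2 and FOXA3 these make 4 of the 8 genes that never passed 5 counts. The 4 genes with at least 20 counts in each library were FOXA1, HNF4A, CEBPA and NR5A2.

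**Figure D1:**
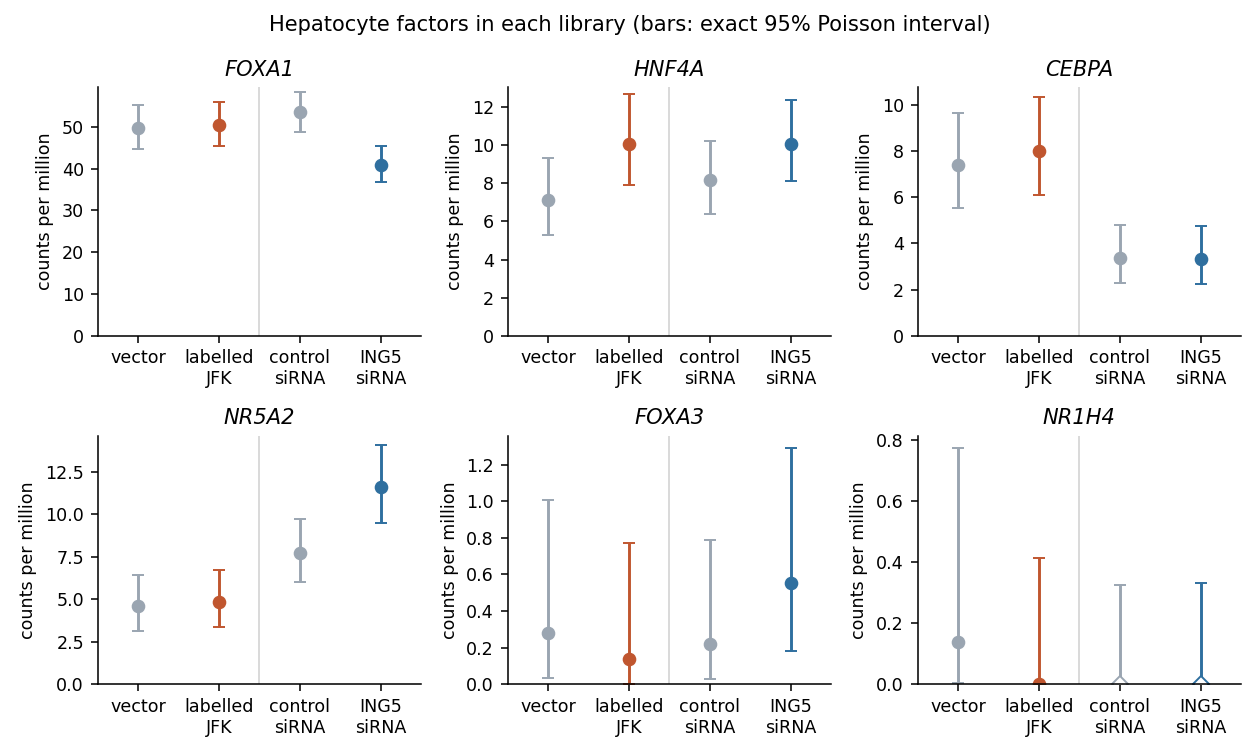
Level of 6 hepatocyte factors in CPM (y axis, each panel from 0) in the 4 libraries (x axis), with exact 95% Poisson intervals as bars, which reach the limit of 3 reads where the count is 0. Open diamonds mark libraries whose table has no row for the gene. FOXA1 lay between 41.0 and 53.5, HNF4A between 7.10 and 10.1, CEBPA was lower in both siRNA libraries, and FOXA3 and NR1H4 stayed under 1.

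Within a library the order per length was FOXA1 first by a wide margin. In vector FOXA1 stood 5.15-fold above CEBPA (interval 3.85 to 7.01), the next in order, and in control siRNA it stood 9.33-fold above HNF4A (7.30 to 12.1). In vector CEBPA and HNF4A did not differ beyond counting error (ratio 1.16, interval 0.772 to 1.73), and HNF4A stood 2.73-fold above NR5A2 (1.73 to 4.37). In the library labelled JFK HNF4A and CEBPA likewise overlapped (1.13, 0.791 to 1.63), with CEBPA 3.26-fold above NR5A2 (2.11 to 5.11). In control siRNA the order was HNF4A, NR5A2 and CEBPA, with neighbours at ratios of 1.11 (0.795 to 1.56) and 1.16 (0.754 to 1.84), both within counting error. In ING5 siRNA NR5A2 and HNF4A overlapped (1.09, 0.818 to 1.46) and HNF4A stood 1.63-fold above CEBPA (1.07 to 2.55). With the shorter HNF4A length of the vector table, an alternative chosen after seeing the data, HNF4A would stand at 3.47 and pass NR5A2 at 2.26 in ING5 siRNA. In control siRNA HNF4A would then stand at 2.83, between FOXA1 at 15.75 and NR5A2 at 1.51. The ratios of 9.33 and 1.11 given for control siRNA thus depend on the listed HNF4A length.

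**Figure D2:**
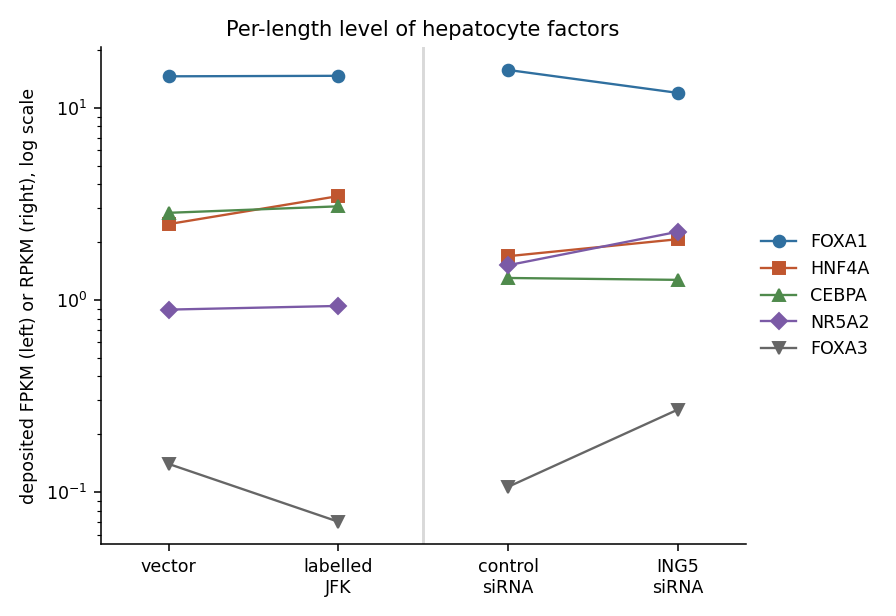
Deposited FPKM (plasmid tables, left) or RPKM (siRNA tables, right) on a log y axis for the 5 hepatocyte factors listed in all 4 libraries (x axis), with lines joining the libraries of an experiment. FOXA1 is highest throughout, at 11.96 to 15.75, and NR5A2 is the fourth in the plasmid libraries and the second in ING5 siRNA.

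The first comparison, of the plasmid libraries, asks whether these factors differ between the library labelled JFK and vector. HNF4A had the largest fold of the 4 measured genes, at the edge of counting error, and the other 3 did not differ beyond it. HNF4A had 73 counts against 51, a fold of 1.45 with an interval of 1.004 to 2.12 (log2 fold 0.54, interval 0.0059 to 1.09). CEBPA had 58 against 53 (log2 fold 0.15, interval -0.41 to 0.72), NR5A2 35 against 33 (0.11, -0.62 to 0.84) and FOXA1 365 against 358 (0.05, -0.16 to 0.27). Folds are ratios of counts scaled by TMM, a trimmed mean of log ratios, with 0.5 added, and a gene was called measured at a mean scaled count of at least 20. Of the 4 measured genes 0 were at least 1.5-fold apart, where 3.57% of 12107 measured genes were, and 0 were 2-fold apart, where 0.57% were. The interval lay wholly above 0 for 1 of 4, HNF4A, against 14.3% of all measured genes (25.5% excluded 0 on either side, 11.2% below it). That interval spanned 0 with the other scalings, with lower bounds of -0.0013 (median of ratios) and -0.030 (total count).

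ING5 siRNA was set against control siRNA to ask which of these factors differ when ING5 is lower. NR5A2 stood higher and FOXA1 lower, while HNF4A and CEBPA did not differ beyond counting error. NR5A2 had 105 counts against 71, a fold of 1.49 (interval 1.10 to 2.05, log2 fold 0.58). FOXA1 had 370 counts against 492, 76.1% of control (log2 fold -0.39, interval -0.59 to -0.20). HNF4A had 91 against 75 (0.29, interval -0.16 to 0.76) and CEBPA 30 against 31 (-0.03, interval -0.81 to 0.74). Again 0 of the 4 were at least 1.5-fold apart, against 8.41% of 11634 measured genes, and 0 were 2-fold apart, against 1.46%. The interval lay wholly above 0 for 1 gene, NR5A2, and wholly below 0 for 1, FOXA1, where 18.3% and 20.6% of all measured genes did so, 39% in all. NR5A2 lies at the 1.5-fold line and passes it with total-count scaling.

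**Figure D3:**
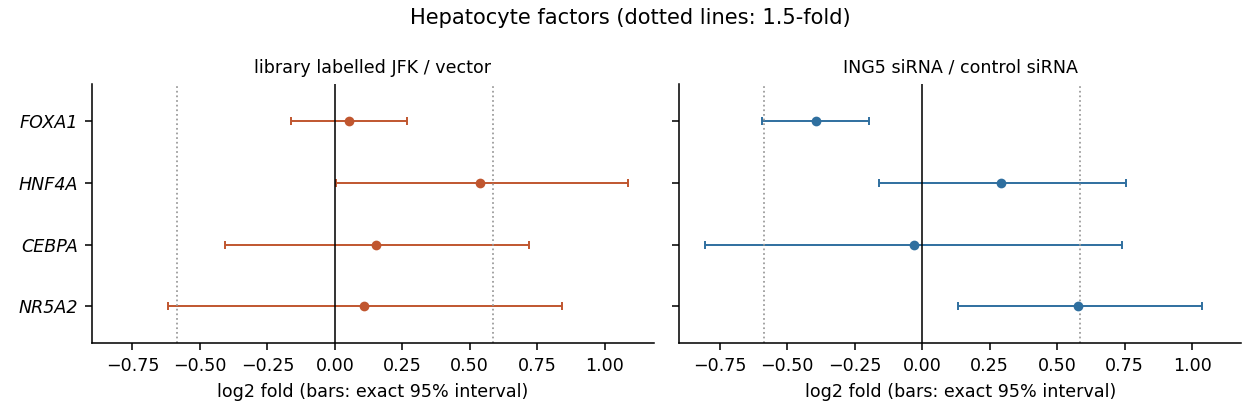
Log2 fold (x axis) of the 4 measured hepatocyte factors (y axis) in the library labelled JFK over vector (left) and in ING5 siRNA over control siRNA (right), with exact 95% intervals as bars and dotted lines at 1.5-fold. HNF4A at 0.54 on the left, and NR5A2 at 0.58 and FOXA1 at -0.39 on the right, are the points whose bars clear 0, the first by 0.0059 and with TMM scaling alone.

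Set side by side, HNF4A stood at 0.54 and 0.29 on the log2 scale in the plasmid and siRNA experiments, which have separate controls. FOXA1 stood at 0.05 and -0.39, CEBPA at 0.15 and -0.03 and NR5A2 at 0.11 and 0.58. HNF4A and NR5A2 thus lay above 0 in both experiments, with 1 of the 2 intervals clear of 0 for each. That of HNF4A was clear with TMM scaling alone and that of NR5A2 with all 3 scalings. All 4 genes lay above 0 in the plasmid pair, so the sign there does not set these 2 apart. Among all measured genes 50.5% lay above 0 in the plasmid pair and 48.6% in the siRNA pair. The share above 0 in both is not given.

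The genes whose counts moved most like each factor were found from the 4 values of log2(CPM + 0.5), centred within each experiment, among genes with at least 100 counts in every library. Centring leaves only the difference within each experiment, so a near gene is one with about the same fold in each. Nearest to HNF4A were ZNF385A, a zinc finger gene, with 169, 236, 197 and 229 counts (distance 0.038), and MYL9, a myosin light chain gene, with 296, 427, 166 and 208 (0.045). Only these and 14 others, 16 of 8090 genes, lay within 0.1 of HNF4A. Nearest to NR5A2 were COL4A1, a basement membrane collagen gene, with 1257, 1311, 1309 and 1888 counts, and BCAT2, for a mitochondrial branched-chain aminotransferase, with 147, 154, 187 and 276. FOXA1 had AKR1C3 and CACNB3 nearest, and CEBPA had NPM3 and MYBL2. Within 0.1 lay 100 genes for NR5A2, 457 for FOXA1 and 1412 for CEBPA, so the last of these profiles is shared by many genes. These distances rest on 4 libraries and describe them alone. They take no account of counting error. The log2 fold intervals of HNF4A, 0.0059 to 1.09 and -0.16 to 0.76, are far wider than 0.1. Which genes lie nearest, and how many lie within 0.1, is therefore not settled by these counts.

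Beyond the 8, 34 other factors of liver or liver development were read. HNF4G and GATA4 had no row in any table, and NR0B2, the repressor SHP that bile acids induce through NR1H4, had at most 1 count. The C/EBP relatives CEBPB and CEBPD, which respond to inflammatory signals, were more abundant per length than CEBPA, at 66.5 and 29.0 FPKM in vector against 2.84, and at 30.2 and 21.0 RPKM in control siRNA against 1.30. TBX3, a repressor that keeps liver progenitors from the biliary fate, had 482 to 1007 counts. The glucocorticoid receptor gene NR3C1 had 560 to 1427 counts and the lipogenic factor gene SREBF1 621 to 1607.

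In the library labelled JFK 25 of the 34 were measured, of which 0 stood 1.5-fold or more above vector and 1 that far below it. That 1 was MLXIPL, for the glucose sensor ChREBP, with 17 counts against 28 and an interval that spans 0 (-1.66 to 0.22). Of all measured genes 1.5% were that much higher and 2.07% that much lower. The median of the 25 was 0.02, beside 0.0023 over all measured genes. GATA6, an endoderm factor gene, lay highest at 0.32 (interval 0.05 to 0.60), followed by NR1I3 at 0.28 and ESRRA at 0.23, while NFIA at -0.48 (-0.83 to -0.14) and NR3C1 at -0.47 (-0.63 to -0.31) lay lowest after MLXIPL.

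With ING5 siRNA 24 of the 34 were measured, of which 1 lay 1.5-fold or more above control and 2 that far below it, against 4.01% and 4.4% of all measured genes. The higher gene was ONECUT2, a cut homeobox factor of hepatic and biliary precursors, with 152 counts against 91 (0.75, interval 0.37 to 1.15). The lower genes were CEBPG, with 255 against 414 (-0.68, interval -0.91 to -0.45), and ATF5, a leucine zipper factor abundant in liver, with 77 against 119 (-0.61, interval -1.04 to -0.19). PPARA, the fatty acid receptor gene, lay just inside the line with 550 counts against 372 (0.58, interval 0.39 to 0.77), and CEBPD had 337 against 245 (0.48). The median of the 24 was -0.14, beside -0.0095 over all measured genes. Of the 24, 5 had an interval wholly above 0, near the 18.3% of all measured genes, and 8 wholly below 0, where 20.6% of all did.

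**Figure D4:**
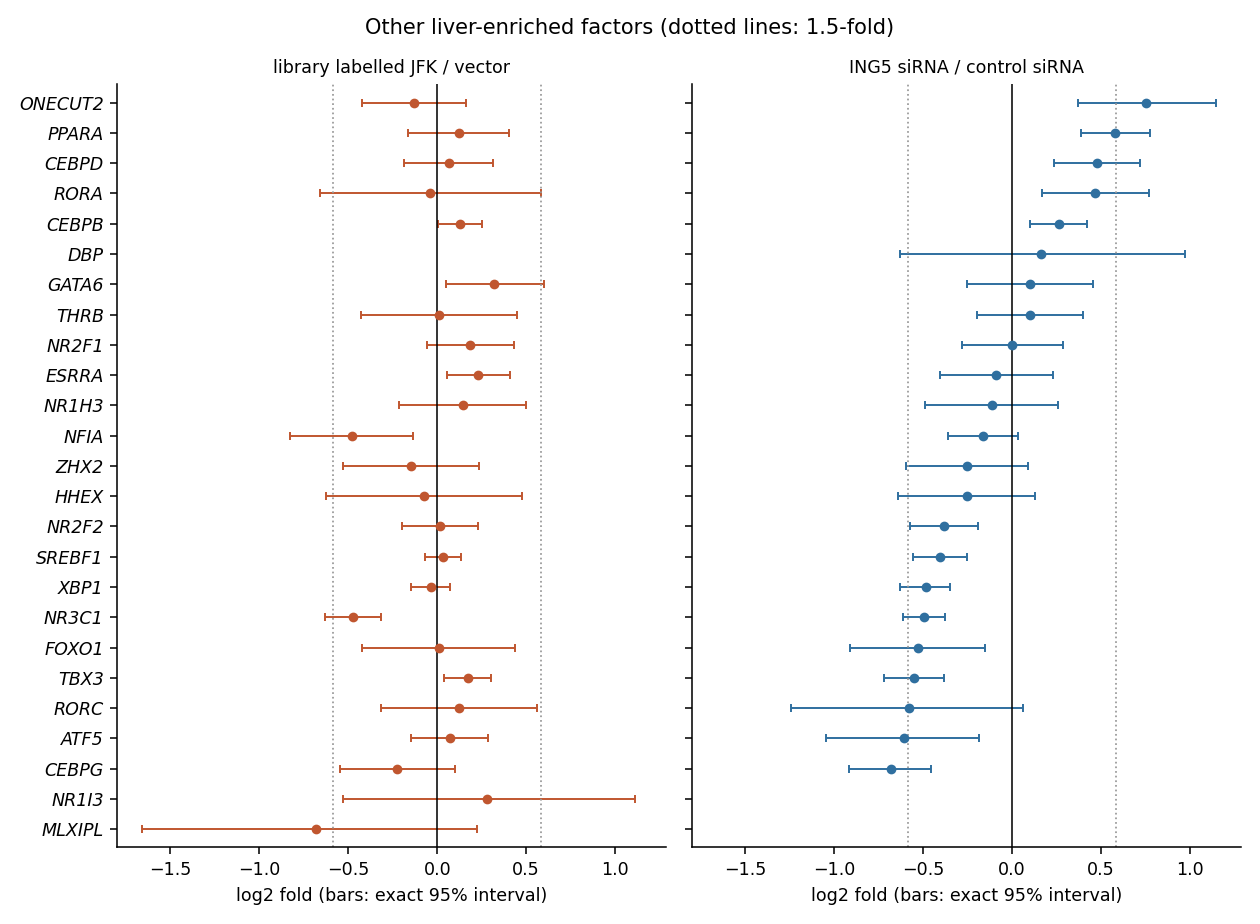
Log2 fold (x axis) of other liver-enriched factors that were measured (y axis) in the library labelled JFK over vector (left) and ING5 siRNA over control siRNA (right), with exact 95% intervals as bars and dotted lines at 1.5-fold. Most points on the left lie within the dotted lines, and on the right ONECUT2 lies beyond the upper line and CEBPG and ATF5 beyond the lower one.

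All partners and coregulators listed had reads in the plasmid libraries, and RXRG had no row in the siRNA tables. RXRA, the receptor that pairs with NR1H4, had 395, 471, 222 and 218 counts, although its partner had at most 1. Of 26 genes, 26 were measured in the plasmid pair and 25 in the siRNA pair, with medians of 0.0037 and -0.14. In the library labelled JFK none stood 1.5-fold above vector and 1 stood that far below it, RXRG, with 27 counts against 43 and an interval that spans 0. With ING5 siRNA SMARCD3, a chromatin remodelling subunit, stood higher, with 213 counts against 138 (0.64, interval 0.33 to 0.96). PPARGC1A, the coactivator PGC-1α that works through HNF4A, stood lower, with 188 against 328 (-0.79, interval -1.05 to -0.52). The demethylase gene KDM1A had 2335 counts against 3388 (-0.52) and the mediator subunit gene MED1 1186 against 1601 (-0.42). Of the 25 measured, 3 had an interval wholly above 0 and 13 wholly below 0, where 18.3% and 20.6% of all measured genes did. By fold, 1 was at least 1.5-fold higher and 1 that far lower, against 4.01% and 4.4% of all measured genes.

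Genes that these factors are known to drive were mostly at the floor. Of 28 secreted and transport genes 6 had at least 20 counts in each library: APOM, RBP4, VTN, TFR2, C3 and CP. In the library labelled JFK 5 of the 6 lay above 0 and 2 were at least 1.5-fold higher. These 2 were RBP4, for the plasma retinol carrier, with 61 counts against 34 (0.86, interval 0.24 to 1.52), and APOM, an apolipoprotein of high-density lipoprotein, with 89 against 60 (0.59, interval 0.10 to 1.09). With ING5 siRNA 6 of 6 lay above 0 and 1 was at least 1.5-fold higher, RBP4, with 54 counts against 34 (0.68, interval 0.04 to 1.35). VTN, for vitronectin, had 2598 counts against 2156 in the library labelled JFK (0.29) and 489 against 376 with ING5 siRNA (0.39, interval 0.20 to 0.59). The medians of the 6 were 0.19 and 0.29. Among all measured genes 50.5% lay above 0 and 1.5% at least 1.5-fold above vector in the plasmid pair, and 48.6% and 4.01% did so in the siRNA pair.

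The 30 enzyme genes were uneven. CPS1, which starts the urea cycle, held 87.9% to 92.1% of the reads of this list in each library. Its log2 fold was -0.0032 for the library labelled JFK and -0.16 with ING5 siRNA (interval -0.18 to -0.14). OTC and ADH1A, enzymes of urea and alcohol metabolism, had no row in any table. FBP1, the gluconeogenic phosphatase gene, was higher in both experiments, with 50 counts against 19 (1.40, interval 0.63 to 2.27) and 36 against 18 (0.996, interval 0.16 to 1.92). HPD, of tyrosine breakdown, had 195 counts against 156 in the library labelled JFK (0.35, interval 0.04 to 0.66) and 170 against 429 with ING5 siRNA (-1.32, interval -1.58 to -1.06). Of 8 and 7 measured, 1 was at least 1.5-fold higher in each experiment and 0 and 1 were lower, with medians of 0.22 and -0.16. Over all measured genes 1.5% were that much higher and 2.07% lower in the plasmid pair, and 4.01% and 4.4% in the siRNA pair.

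Target genes of NR1H4 and NR5A2 lay mostly above 0 in the plasmid pair and on both sides of it in the siRNA pair. In the library labelled JFK 11 of 26 were measured with a median of 0.09, with 8 above 0 and 3 intervals wholly above it, where 50.5% and 14.3% of all measured genes were. The 1 gene past 1.5-fold was lower (2.07% of all), KLB, with 15.84 expected counts against 26.39 and an interval that spans 0. With ING5 siRNA 9 were measured with a median of -0.02, 4 above 0 and 5 below, and 2 were at least 1.5-fold lower, against 4.4% of all. SLC51B, a bile acid exporter subunit that NR1H4 induces in liver and gut, had 28 counts against 50 (-0.81, interval -1.54 to -0.13). The canalicular pump gene ABCC2 had 620 against 997 (-0.67, interval -0.82 to -0.52). Of genes tied to NR5A2, CCNE1, for cyclin E1, had 285 against 222 (0.38, interval 0.12 to 0.64) and SCARB1, the HDL receptor gene, 2247 against 2091 (0.12, interval 0.03 to 0.21). CYP11A1, which starts steroid synthesis, lay at 0.03 (-0.19 to 0.25).

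**Figure D5:**
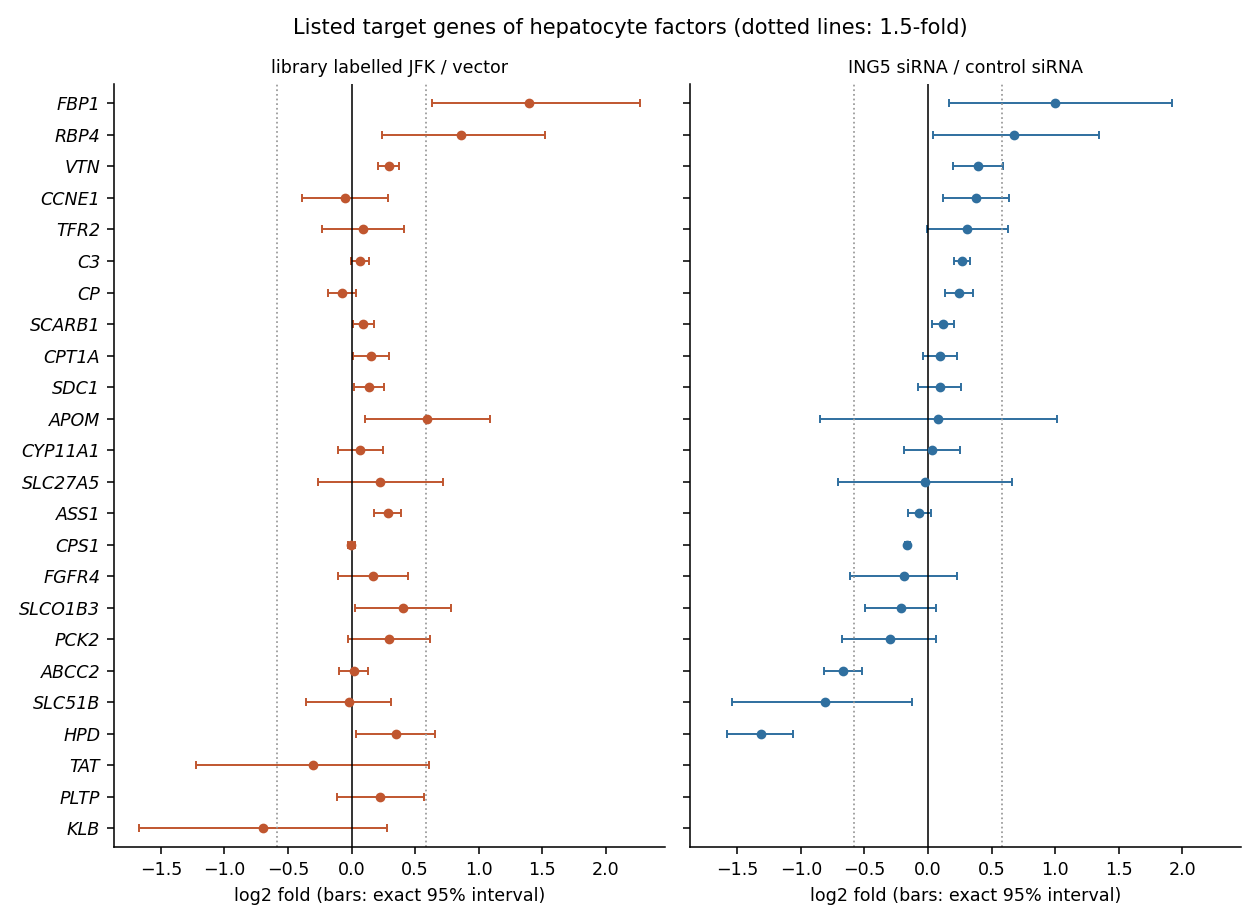
Log2 fold (x axis) of listed target genes that were measured (y axis) in the library labelled JFK over vector (left) and ING5 siRNA over control siRNA (right), with exact 95% intervals as bars and dotted lines at 1.5-fold. FBP1 and RBP4 lie beyond the upper line in both panels, and HPD lies at 0.35 on the left and -1.32 on the right.

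Markers of other cell types moved in the same comparisons. Of 5 biliary markers 3 had at least 20 counts in each library, KRT7 and KRT19 among them. Their list summed to 1311, 887, 419 and 259 CPM, of which KRT7 held 74.8% to 89.4%, so the sums follow KRT7. In the library labelled JFK KRT7 was lower than in vector (716 against 1172 CPM) and KRT19 higher (153 against 118 CPM). With ING5 siRNA both were lower than in control siRNA. Of 6 squamous and basal markers 3, 3, 1 and 1 had at least 20 counts, with sums of 2932, 3815, 296 and 256 CPM, nearly all from KRT17, and KRT6A had no row. The 5 endothelial markers summed to 145, 164, 26.5 and 12.4 CPM, led by CDH5. With ING5 siRNA CDH5 had 87 counts against 224 and PECAM1 21 against 16. The 6 placental markers summed to 3232, 3756, 1602 and 1214 CPM, led by ALPP. With ING5 siRNA ALPP had 10851 counts against 14635, while ALPG had 57 against 48 and TFAP2C 35 against 31. Of the remaining lists, fibroblast markers summed to 56.5 to 61.0 CPM, leukocyte markers to 50.4 to 184, and intestinal markers to 11.7 to 13.4. The gastric and pancreatic, luminal breast and urothelial, and kidney and Müllerian lists stayed under 7 CPM and the neural list under 0.3. The part of these markers in the differences of HNF4A, NR5A2 and FOXA1 was not tested.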

How the data were processed

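RNA of 4 libraries, isolated with Trizol per the labels, was analysed. Groups came from the transfection field. The tools STAR, fastp, DESeq2 and FastQC and the builds GRCh37 and hg19 are named, without roles, per the submitters' processing notes. No source used here gives the counter or its use of strand, so reads of HNF4A and its antisense neighbour HNF4A-AS1 cannot be told apart. NR5A2 also overlaps a long non-coding RNA gene, LOC107985244, and how reads in that overlap were assigned is not known. For the plasmid libraries the deposited tables give expected counts and FPKM per the file headers, while those of the siRNA libraries hold deposited whole-number counts beside deposited RPKM. Every gene at 0 counts has 0.01 in the deposited FPKM or RPKM column, as have 25 and 28 genes with reads in the plasmid tables. Each row had reads in at least 1 library of its pair. Counts of the 6 listed genes of interest were whole in every table.

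Entrez identifiers were matched to symbols through RefSeq (16900 and 16767 matched). In the siRNA experiment 2 identifiers listed more than once were left out, as was 1 gene with a blank count in the JFK table. Counts were scaled by TMM (trims 0.3 and 0.05) with scipy 1.17.1, pandas 2.3.3 and numpy 2.4.6 under Python 3.11.15, and figures were drawn with matplotlib 3.10.9. Fold intervals are Clopper-Pearson intervals of a ratio of counts, with expected counts rounded, and level intervals are Poisson intervals. Reads are not independent molecules. The method was tested on simulated data. Some genes counted in the lists are not reported here by name and are not plotted.

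The genes and lists were chosen with earlier results of these data known, and the promoter motifs with the sequences seen. Named genes are the 8, the 3 highest and lowest, those 2-fold apart and the 4 with most reads of each list, markers with at least 20 counts and the 2 nearest profiles. Examples are drawn from these, and others named for their role, such as CYP11A1 and genes with no row, were chosen after their values were seen. Alternatives were median-of-ratios and total-count scaling, FPKM or RPKM with 0.1 added, 5 added counts, no filter, a mean of at least 100, and genes with whole counts that, in the siRNA tables, equal those implied by RPKM within 0.001.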

Additional observations from a re-analysis of the deposited data

How the results depend on the processing

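The log2 folds of the 4 measured factors kept their direction under both other scalings, FPKM or RPKM and 5 added counts, but the HNF4A interval in the plasmid pair, clear of 0 with TMM, spanned it with median-of-ratios (-0.0013 to 1.08) and total-count scaling (-0.030 to 1.05). The folds ranged over 0.47 to 0.54 for HNF4A in the library labelled JFK, 0.55 to 0.59 for NR5A2 and -0.41 to -0.38 for FOXA1 with ING5 siRNA. The count of these factors at least 1.5-fold apart was 0 in each pair, but 1 in the siRNA pair with total-count scaling (NR5A2), and with no filter it was 2 in the plasmid pair (FOXA3 and NR1H4, with at most 2 counts) and 1 in the siRNA pair (FOXA3). Over all genes the 432 in the plasmid pair became 3417 with no filter, 82 at a mean of at least 100 and 199 with whole counts, and the 978 in the siRNA pair became 4376 and 461 under the first 2 of these. Ranks per length were the same in CPM and TPM, and with the shorter HNF4A length 2 ranks in ING5 siRNA changed places. No paired analysis was possible because each group holds 1 library, so no replicate could be left out either. At this depth a fold could be read for 4 of the 8 factors.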

Other observations

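Some partners and targets of hepatocyte factors stood apart between the experiments rather than within them. NR1I3, the xenobiotic receptor CAR, had 25 and 30 counts in the plasmid libraries, against 1 and 0 in the siRNA libraries. PLTP, the phospholipid transfer protein gene, had 135 and 155 counts in the plasmid libraries and 3 and 5 in the siRNA libraries, and RXRG had 43 and 27 against no row. APOM had 60 and 89 against 21 and 22, and VTN 2156 and 2598 against 376 and 489. In the other direction RORA had 47 and 45 counts against 161 and 220, and NFIA 173 and 122 against 456 and 403. Listed lengths differed for PLTP (1727 and 2100 bases) and NR1I3 (1130 and 1414). They were the same in both experiments for VTN (1678) and RORA (10998). The tables were made separately, so tables and experiments cannot be told apart. These genes were chosen after their values were seen, and the share of all genes that stood as far apart is not given. Markers of other cell types stood apart too. KRT17 had 20990.1 and 27538.9 counts against 2704 and 2299, and the fibroblast marker LUM 99 and 80 against 294 and 232. The gap is therefore not particular to partners and targets of hepatocyte factors.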
